A study of Homo sapiens with 22 samples.

Results

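CXCL12 and its receptors CXCR4 and ACKR3 are 3 of the 36859 genes measured in 22 RNA-seq libraries of RPTEC, human renal proximal tubule epithelial cells immortalized with hTERT. The genes were chosen by name, as a chemokine and the receptors that bind it, with an earlier result known: the CXCL12 transcript was far higher in RPTEC that lacked SETD2, a histone methyltransferase, than in wild-type (WT) cells. Their levels in the SETD2 knockout (KO) clones against WT are therefore given as a description with no test. Tests are given for other comparisons, and those against WT, KO1 or KO2 share these libraries with that contrast. All 3 passed the filter on low values (10 or more normalized counts in 2 or more libraries), as did 14585 genes in all.

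CXCL12, also named SDF-1, is a secreted chemokine made mainly by stromal cells. It binds CXCR4, a receptor that signals through inhibitory G proteins to directed migration and survival, and ACKR3, an atypical receptor that recruits arrestins, internalizes the chemokine and thereby lowers its level outside the cell. Heparan sulfate on proteoglycans holds CXCL12 at cell surfaces, and peptidases such as DPP4 and several matrix metalloproteinases trim its N terminus, which ends its signalling through CXCR4. In the kidney, the pathway is known from development of the vasculature and from injury, and CXCR4 is a target of the hypoxia-inducible factors.

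The 22 libraries formed 11 groups of 2. Of these groups, 5 were grown in 2% fetal bovine serum (FBS): WT, WT given 10 ng/ml TGFβ for 72 h, a line labelled KO2 rescue, and KO1 and KO2, which lack SETD2. The other 6 were in regular medium with 10% FBS: the rescue clones Rescue1 and Rescue2, and WT transduced with eGFP (the empty vector control), SOX2, OCT2 or PRRX1. KO1 and KO2 are each 1 clone made with CRISPR/Cas9 and a guide RNA to a SETD2 exon. Rescue1 and Rescue2 are single-colony clones of KO cells carrying lentiviral, FLAG-tagged, full-length SETD2 under blasticidin selection, whereas the eGFP and transcription factor lines are bulk populations selected with puromycin. All cells share the hTERT immortalization. The SETD2 transcript was at 1852 and 2061 normalized counts in the WT libraries, 1046 and 1130 in KO1, 1050 and 1052 in those of KO2, 10240 and 10369 in Rescue1, 9764 and 10445 in Rescue2, and 2947 and 3128 in the eGFP line. The libraries labelled KO2 rescue held only 820 and 834, below KO2 (log2 difference -0.35 ± 0.07 SE, adjusted p = 0.0038, limma), so the SETD2 transcript goes against that label and the line is called by its label throughout. A transcript count does not show the edit in the KO clones. Rescue clones and KO2 also differed in serum, as did the eGFP line and WT, so genotype or vector and serum cannot be told apart in those comparisons.

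Values are normalized counts, recovered from the log2 values that the authors deposited. In each library 1 read was worth 0.82 to 1.57 normalized counts, and the libraries held about 7700000 to 19000000 reads. A floor of 3 reads, converted with each library's own value, came to 2.46 to 4.72 normalized counts per library, and its mean over a group is used where a gene was at 0. These floors cover counting error only. Duplicates of a group differed by a median of 0.064 to 0.181 on the log2 scale over 2347 genes with a mean of at least 1000, and the WT pair stood apart from the rest: 65 of these genes differed by over 1 log2 between the WT libraries, against 6 to 27 in the other groups. The labels do not say whether duplicates came from separate cultures, so p-values measure the spread between these libraries, which may be technical.

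CXCL12 (ENSG00000107562) is at chr10:44370165-44386493 (minus strand), CXCR4 (ENSG00000121966) at chr2:136114349-136119177 (minus strand) and ACKR3 (ENSG00000144476) at chr2:236567787-236582354 (plus strand) in GRCh38, with gene models of GENCODE release 44. The canonical transcripts have 3 exons and 1928 bases for CXCL12, 2 exons and 1668 bases for CXCR4, and 2 exons and 2015 bases for ACKR3. The 250 bases before the transcription start of CXCL12 and of the most upstream of 3 CXCR4 starts in RefSeq (GRCh38.p14) are shown because both transcripts were highest in the KO clones. Capitals mark every match, on either strand, to the 10 motifs searched. Both windows lie inside the spans of the longer GENCODE gene models. ACKR3 had no entry.

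CXCL12, chr10:44385098-44385347, minus strand: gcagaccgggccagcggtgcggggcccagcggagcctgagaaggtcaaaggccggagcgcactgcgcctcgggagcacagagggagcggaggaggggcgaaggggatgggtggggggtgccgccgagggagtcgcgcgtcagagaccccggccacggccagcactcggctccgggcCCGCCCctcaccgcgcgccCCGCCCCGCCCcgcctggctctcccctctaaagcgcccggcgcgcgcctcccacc
CXCR4, chr2:136118150-136118399, minus strand: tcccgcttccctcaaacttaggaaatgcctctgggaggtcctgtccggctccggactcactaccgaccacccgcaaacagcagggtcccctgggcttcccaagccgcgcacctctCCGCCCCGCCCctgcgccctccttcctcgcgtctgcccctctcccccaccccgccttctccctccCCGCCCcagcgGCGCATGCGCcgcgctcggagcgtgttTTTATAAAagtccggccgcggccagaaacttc

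The CXCL12 window was 78% G or C with 31 CpG dinucleotides, and the CXCR4 window 68% with 24, against medians of 58% and 11 over the 35116 promoter windows of the same length. The CXCL12 window held 3 GC boxes (GGGCGG), with no match to the other 9 motifs. The CXCR4 window held 3 GC boxes, a TATA box (TATAAA, matched on both strands in overlapping letters, from 32 and 30 bases before the start) and an NRF1 element (GCATGCGC, likewise on both strands, from 59 and 57 bases before the start). GC boxes occur in 42.6% of all windows, TATAAA in 10.7% and GCATGCGC in 2.63%. Neither window held CCAAT (32.0% of all windows), the hypoxia response core ACGTG (18.5%), the ETS core CCGGAA (14.5%), the NF-kappaB form GGANTTTCC (1.45%), the AP-1 form TGANTCA (6.57%), the C/EBP form TTGCNNAA (9.05%) or the forkhead core TAAACA (11.0%). These are letter matches, not binding sites.

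CXCL12 was among the most abundant transcripts in the KO clones and close to the detection floor in 1 WT library. It was at 74.9 and 6.88 normalized counts in the WT libraries, about 85 and 8 reads. In KO1 it was at 25801 and 26440, and in KO2 at 22547 and 20462. The KO libraries thus lay far above every other library, by 639-fold (KO1) and 526-fold (KO2) over the WT mean of 40.9 ± 48.1 (SD, n = 2), and by 33.4-fold and 27.5-fold over the eGFP mean of 782 ± 99.7 (SD, n = 2). The log2 differences from WT were 10.06 ± 0.62 (KO1) and 9.78 ± 0.62 (KO2, SE), and ranged from 8.43 to 11.70 and from 8.14 to 11.41 when single libraries were left out, with the extremes set by which WT library was kept. In these bulk libraries, more cells with the transcript and more transcript per cell cannot be told apart.

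**Figure D1:**
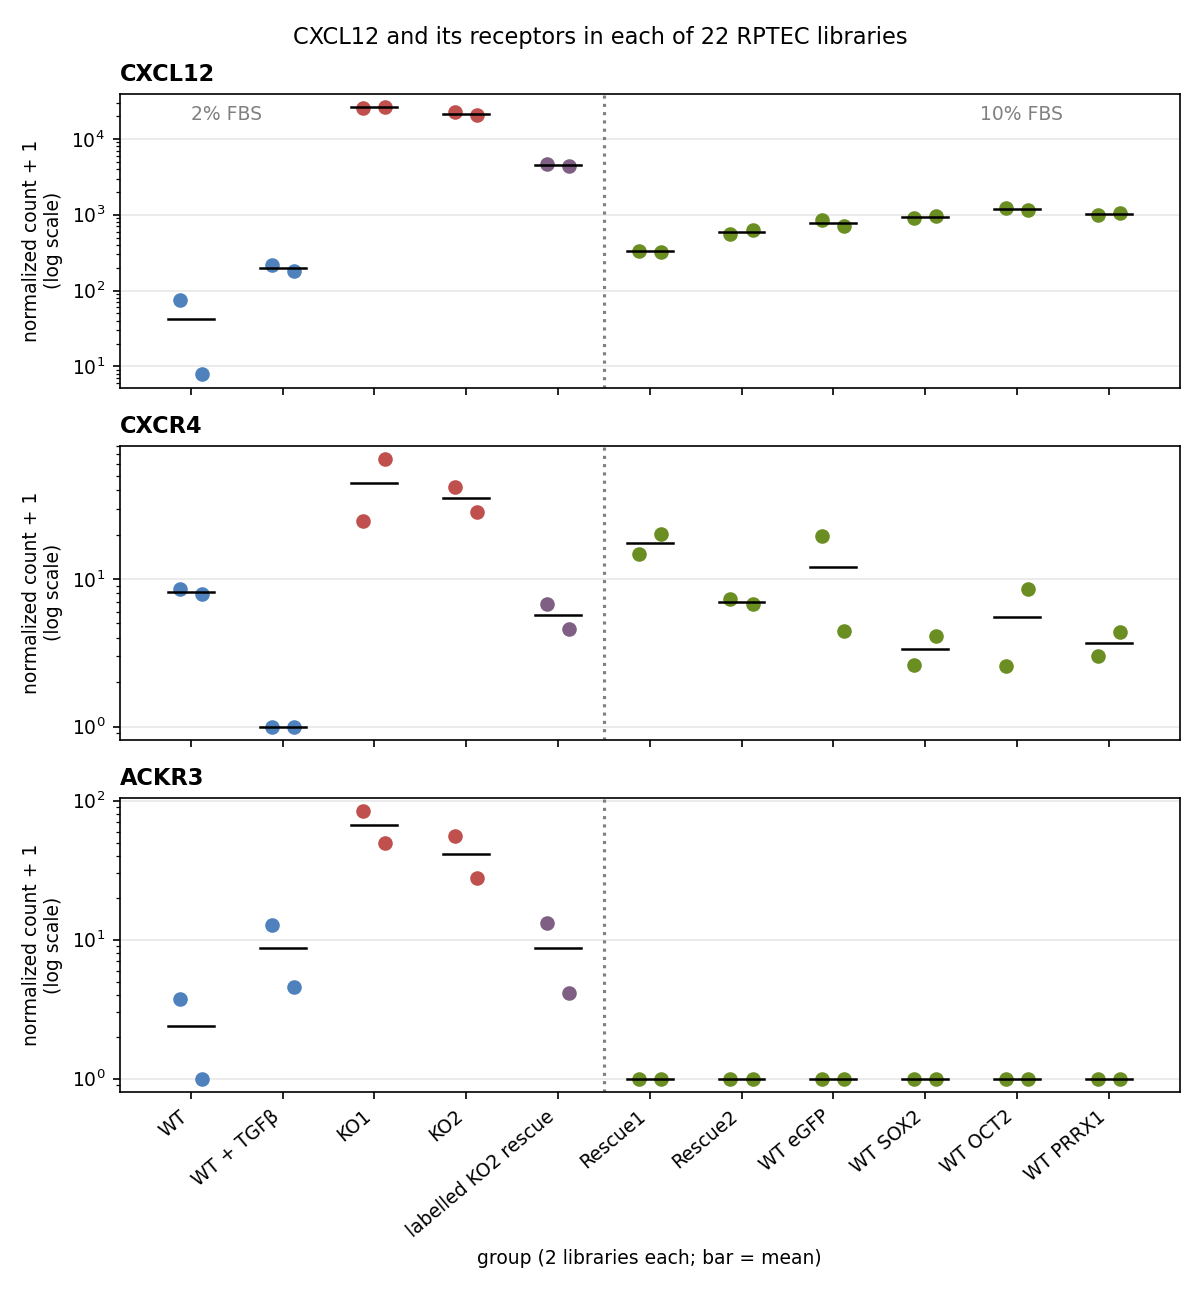
Normalized counts plus 1 on a log scale (y axis) of CXCL12, CXCR4 and ACKR3 in each of the 22 libraries (points) by group (x axis), with the group mean as a bar and a dotted line between 2% and 10% FBS. All 3 genes are highest in KO1 and KO2, the WT points for CXCL12 lie 10.9-fold apart, and ACKR3 is at 0 in all 12 libraries in 10% FBS.

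The other groups followed in a clear order. The libraries labelled KO2 rescue held 4654 and 4339 normalized counts of CXCL12, the OCT2 line 1211 and 1141, the PRRX1 line 1000.4 and 1046, the SOX2 line 910 and 959, and the eGFP line 852 and 711. Below these lay Rescue2 with 551 and 633, Rescue1 with 333 and 324, TGFβ-treated WT with 215 and 182, and last WT. No library of a group overlapped those of its neighbour in this order. The steps from OCT2 to PRRX1 (1.15-fold), from PRRX1 to SOX2 (1.10-fold) and from SOX2 to eGFP (1.19-fold) were no larger than the 1.2-fold gap between the eGFP duplicates.

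CXCR4 was a low-abundance transcript in every group. KO1 held 23.7 and 63.9 normalized counts and KO2 41.2 and 27.3, about 23 to 73 reads a library. Rescue1 held 13.8 and 19.2, the eGFP line 18.6 and 3.42, WT 7.53 and 6.86, and Rescue2 6.31 and 5.72. The line labelled KO2 rescue was at 5.82 and 3.61, the OCT2 line at 1.56 and 7.55, the PRRX1 line at 2.00 and 3.38, and the SOX2 line at 1.60 and 3.09. TGFβ-treated WT was at 0 in both libraries, which allows up to 3.20 normalized counts (3 reads, mean over the group). The 4 KO libraries lay above all others, by 6.09-fold (KO1) and 4.76-fold (KO2) over the WT mean of 7.20 ± 0.47 (SD, n = 2), or log2 differences of 2.29 ± 0.77 and 2.08 ± 0.77 (SE). KO1 and KO2 overlapped each other, and so did most neighbours lower in the order, namely Rescue1 and eGFP, eGFP and WT, Rescue2 and the line labelled KO2 rescue, and the 4 lowest groups above 0.

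ACKR3 was read only in cells grown in 2% FBS: 9 of those 10 libraries had a value above 0 and none of the 12 in 10% FBS had. KO1 and KO2 were grown only in 2% FBS, so SETD2 loss and serum cannot be told apart in this split. About 3 reads, the floor, made up the value in WT replicate 1 and in the lower libraries of TGFβ-treated WT and the line labelled KO2 rescue. KO1 held 82.9 and 48.3 normalized counts and KO2 54.5 and 26.9. The line labelled KO2 rescue was at 12.3 and 3.17, TGFβ-treated WT at 11.8 and 3.57, and WT at 2.76 and 0. KO1 and KO2 overlapped, as did the line labelled KO2 rescue and TGFβ-treated WT, whereas the KO libraries lay above all others. The WT mean of 1.38 was under its floor of 2.62, so no fold over WT is given. Zero reads in the 10% FBS groups allow group means of up to 2.55 to 4.10 normalized counts, and KO1 stood at least 20.4-fold and KO2 at least 12.7-fold above the eGFP line, groups that also differ in serum. Among the 2347 genes with a mean of at least 1000, 10 were at 0 in some library, so zeros in this table are rare for well-counted genes. ACKR3 lay far below that level in every library, so this share does not bear on its zeros.

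Levels of different genes are compared here only per kilobase of canonical transcript. In WT, CXCL12 stood at 21.2 normalized counts per kb, CXCR4 at 4.32 and ACKR3 at 0.684, where the median gene tested was at 47.8. In KO1, CXCL12 reached 13548 per kb and ranked 45th of 13829 genes with a length, and in KO2 11154 per kb, rank 58. In WT its rank was 8737, in the eGFP line 1620, in Rescue2 2173 and in Rescue1 3491. The receptors stayed below the median gene in every group: their highest levels per kb were 32.5 for ACKR3 and 26.3 for CXCR4, both in KO1. In WT the ligand and CXCR4 had no fixed order, with 38.9 against 4.52 per kb in replicate 1 and 3.57 against 4.11 in replicate 2. The mean of the ligand per kb exceeded that of CXCR4 by 516-fold in KO1, 543-fold in KO2, 826-fold in the line labelled KO2 rescue, 17.2-fold in Rescue1 and 85.1-fold in Rescue2. It did so by 61.3-fold in the eGFP line, where CXCR4 was at 11.2 and 2.05 per kb in the libraries, and by 223-fold in the OCT2 line. These ratios rest on few CXCR4 reads, 3 to 6 a library in the line labelled KO2 rescue and 2 to 9 in the OCT2 line. In the SOX2 and PRRX1 lines the CXCR4 means of 2.34 and 2.69 normalized counts were under their floors of 2.665 and 3.16. No fold over CXCR4 is given for those lines.

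Differences between groups were tested with limma on log2(normalized count + 1), with all 22 libraries in 1 fit and Benjamini-Hochberg adjustment over all 14585 genes. A gene was called where the adjusted p was under 0.05 and the log2 difference over 1. The 11 differences tested for CXCL12 carried an SE of 0.62, which the WT pair sets: without the WT libraries, an alternative added after seeing the data, the SE was 0.10.

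TGFβ, the cytokine used as a reference inducer of epithelial-to-mesenchymal transition, moved the ligand and CXCR4 in opposite directions. CXCL12 rose in TGFβ-treated WT, to 199 ± 23.9 against 40.9 ± 48.1 in WT (SD, n = 2), a log2 difference of 3.02 ± 0.62 (adjusted p = 0.0032, limma). The size rests on WT: leaving out WT replicate 1 gave 4.66 and leaving out WT replicate 2 gave 1.39. With only the 4 libraries compared in the fit, the call was lost (adjusted p = 0.30, limma). CXCR4 fell from 7.20 to 0, at least 2.25-fold lower (adjusted p = 0.013, limma), a call of 8 to 9 reads a library that was lost when any library of the comparison was left out (adjusted p = 0.054 to 0.065, limma), with a pseudocount of 5 (0.10) and with only the libraries compared (0.058). ACKR3, at 7.69 against 1.38, was not called (1.98 ± 0.77 SE, adjusted p = 0.10, limma), though it was without WT replicate 1 (log2 difference 2.94, adjusted p = 0.033, limma). Of all genes tested, 3.58% were called higher and 4.26% lower with TGFβ. The comparison shares the WT libraries with the contrast by which the genes were known. CXCL12 in both KO clones lay 132-fold and 108-fold above TGFβ-treated WT.

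Between KO1 and KO2, libraries that also form the contrast known beforehand, none of the 3 genes passed the test. The log2 differences, KO1 minus KO2, were 0.28 ± 0.62 for CXCL12 (adjusted p = 0.82), 0.21 ± 0.77 for CXCR4 (adjusted p = 0.90) and 0.71 ± 0.77 for ACKR3 (adjusted p = 0.60, SE, limma). The CXCL12 libraries of the clones did not overlap, and without the WT libraries the adjusted p was 0.081 (limma). The CXCR4 difference turned negative without KO1 replicate 2 (-0.49) or KO2 replicate 2 (-0.08). Across all genes, 2.48% were called higher and 4.49% lower in KO1 than in KO2.

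Re-expressed SETD2 in 10% FBS went with low CXCL12. Against KO2 in 2% FBS, CXCL12 was lower by 65.5-fold in Rescue1 (log2 difference -6.03 ± 0.62 SE, adjusted p = 3.7e-06) and by 36.3-fold in Rescue2 (-5.18 ± 0.62 SE, adjusted p = 1.7e-05, limma). ACKR3 fell to 0 in both, at least 9.93-fold lower in Rescue1 (adjusted p = 1.0e-04) and at least 15.4-fold lower in Rescue2 (adjusted p = 1.1e-04, limma). CXCR4 fell in Rescue2, 6.02 ± 0.42 against 34.2 ± 9.88 (SD, n = 2), by 2.30 ± 0.77 (SE) on the log2 scale (adjusted p = 0.037, limma). That call was lost with libraries scaled to the same total (adjusted p = 0.059), with quantile normalization (0.062), with no filter (0.064) and without any library of the pair of groups (0.076 to 0.17, limma). In Rescue1 the CXCR4 difference of -1.0 ± 0.77 was not called (adjusted p = 0.37, limma). Background shares were 6.88% higher and 9.24% lower for Rescue1 against KO2, and 6.86% and 8.41% for Rescue2. Both comparisons share the KO2 libraries with the contrast by which the genes were known.

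The eGFP line is the control in the same serum as the rescue clones. CXCL12 was at 328 ± 6.46 in Rescue1 and 592 ± 57.7 in Rescue2 against 782 ± 99.7 in the eGFP line (SD, n = 2), with no overlap between the groups. Neither difference was called: -1.24 ± 0.62 for Rescue1 (adjusted p = 0.17) and -0.40 ± 0.62 for Rescue2 (adjusted p = 0.72, SE, limma). With the WT libraries left out of the fit, Rescue1 was called (SE 0.10, adjusted p = 1.0e-06), as it was with only the libraries compared (adjusted p = 0.022, limma), and Rescue2 was not, since its change was under 1 log2. CXCR4 did not pass in either (0.89 ± 0.77 and -0.41 ± 0.77, adjusted p = 0.45 and 0.77, limma), and without 1 eGFP library the sign turned, to -0.18 for Rescue1 (without replicate 2) and to 0.67 for Rescue2 (without replicate 1). ACKR3 was at 0 in all these libraries. Of all genes, 6.03% were higher and 6.79% lower in Rescue1, and 5.46% higher and 5.68% lower in Rescue2. The rescue clones differed from each other by 0.85 ± 0.62 in CXCL12, Rescue2 higher (adjusted p = 0.75, limma), or 1.80-fold in the means.

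The line labelled KO2 rescue shares serum with KO2 and its SETD2 transcript did not rise; the comparison reuses the KO2 libraries of the contrast known beforehand. Its CXCL12 was nonetheless 4.78-fold lower than in KO2, 4496 ± 223 against 21505 ± 1474 (SD, n = 2), a log2 difference of -2.26 ± 0.62 (adjusted p = 0.031, limma). This call was lost when any library of the comparison was left out (adjusted p = 0.11 to 0.15, limma), while the adjusted p was 4.7e-09 without the WT libraries (limma). CXCR4 was lower by 7.27-fold (-2.62 ± 0.77, adjusted p = 0.044, limma), a call lost under 6 other settings and without any library of the comparison (adjusted p = 0.11 to 0.23, limma). ACKR3 was 5.26-fold lower and missed the threshold (-2.40 ± 0.77, adjusted p = 0.066, limma), which it passed under 4 other settings (adjusted p = 0.013 to 0.046, limma) and without replicate 1 of the line labelled KO2 rescue (log2 difference -3.24, adjusted p = 0.049, limma). Here 1.65% of all genes were called higher and 2.52% lower. CXCL12 in this line still lay 110-fold above the WT mean.

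The eGFP line differed from WT in vector, selection and serum. CXCL12 rose to 782 from 40.9, 19.1-fold, a log2 difference of 4.99 ± 0.62 (adjusted p = 3.0e-05, limma) that became 6.63 on leaving out WT replicate 1 and 3.36 on leaving out WT replicate 2. With only the 4 libraries compared in the fit, the adjusted p was 0.12 (limma). CXCR4 did not pass (0.19 ± 0.77, adjusted p = 0.91, limma, and -0.89 without eGFP replicate 1) and ACKR3 was at or under the floor in both groups. The background was 6.49% higher and 6.24% lower, and the WT libraries are shared with the contrast by which the genes were known.

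SOX2, OCT2 and PRRX1 are transcription factors expressed from the vector in WT cells, and CXCL12 did not pass the test against eGFP in any of these lines. The log2 differences from eGFP were 0.26 for SOX2 (adjusted p = 1), 0.59 for OCT2 (adjusted p = 0.95) and 0.39 for PRRX1 (adjusted p = 1), each ± 0.62 (SE, limma), or 1.19-fold, 1.5-fold and 1.31-fold in the means. All 6 libraries lay above both eGFP libraries. Without the WT libraries the SE was 0.10 and the adjusted p for OCT2 0.049 (limma), at a size under the fold threshold. The CXCR4 differences were -1.51, -0.99 and -1.36 on the log2 scale (adjusted p = 0.78, 0.90 and 1, limma) and none was called. The OCT2 difference in CXCR4 was 0.08 without eGFP replicate 1. Few genes were called at all: 0.0137% higher and 0.00686% lower for SOX2, 0.0274% and 0.00686% for OCT2, and 0.0343% and 0.00686% for PRRX1.

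**Figure D2:**
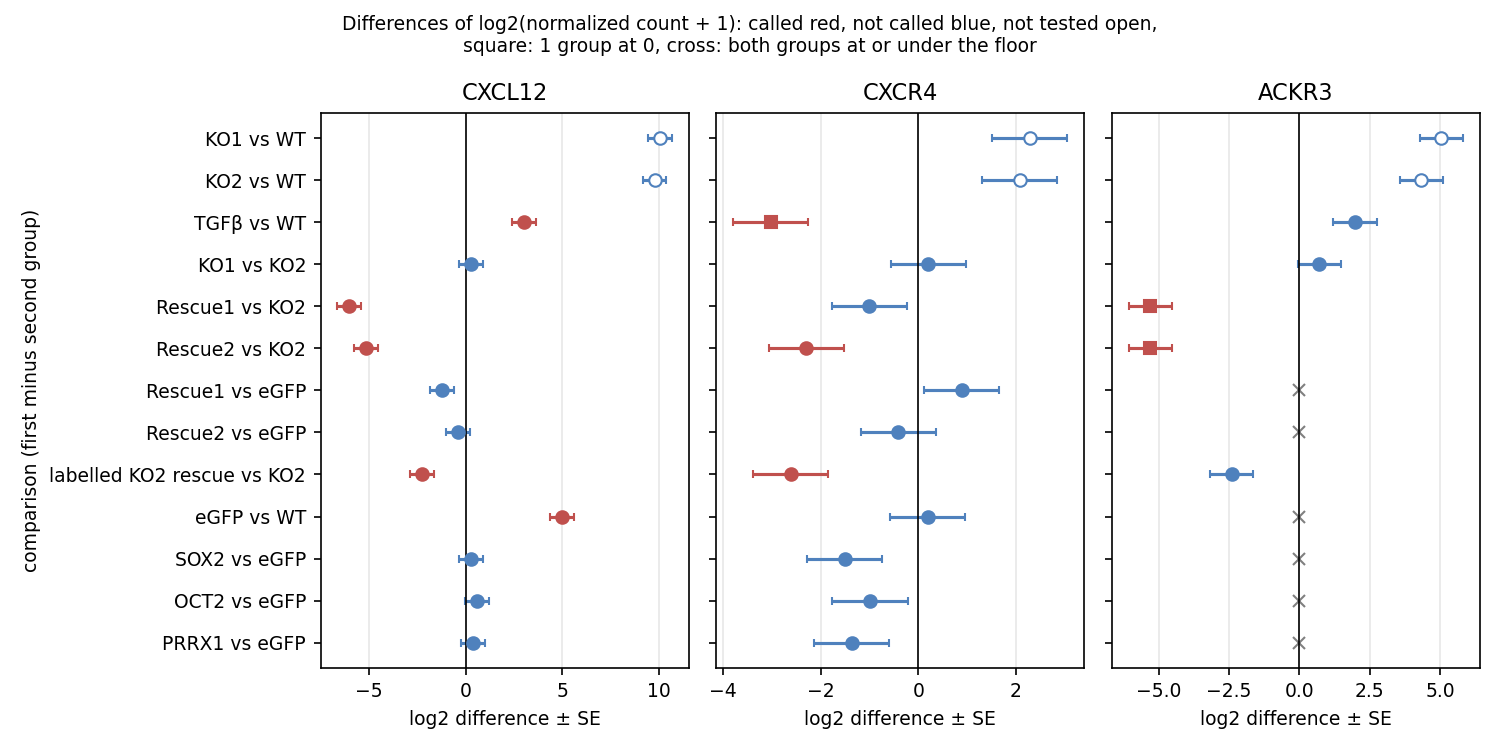
Difference of log2(normalized count + 1), first group minus second, ± SE (x axis) for CXCL12, CXCR4 and ACKR3 in 13 comparisons (y axis). Red points were called, blue were not, open points were not tested, squares have 1 group at 0 and crosses have both groups at or under the floor. CXCL12 was called in 5 of the 11 comparisons tested.

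The genes whose pattern was most like each member over the 22 libraries were ranked by Pearson correlation of log2(normalized count + 1) among 9818 genes (9819 for the receptors) with a mean of at least 50. These libraries share clones, serum and depth, so r is a description. For CXCL12 they were SLC7A2, a cationic amino acid transporter (r = 0.96), SEC22B, a vesicle SNARE (0.96), MXRA7 (0.95), the unnamed gene ENSG00000227446 (0.95) and OR12D2, an olfactory receptor gene (0.94). SLC7A2 had means of 206 in WT, 29183 in KO1, 33089 in KO2, 7401 in the line labelled KO2 rescue, 1265 in Rescue1, 576 in Rescue2 and 1807 in the eGFP line. Its means, unlike those of CXCL12, were higher in KO2 than in KO1 and higher in Rescue1 than in Rescue2. SEC22B ran over a smaller range, from 1965 in WT to 5872 in KO1.

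**Figure D3:**
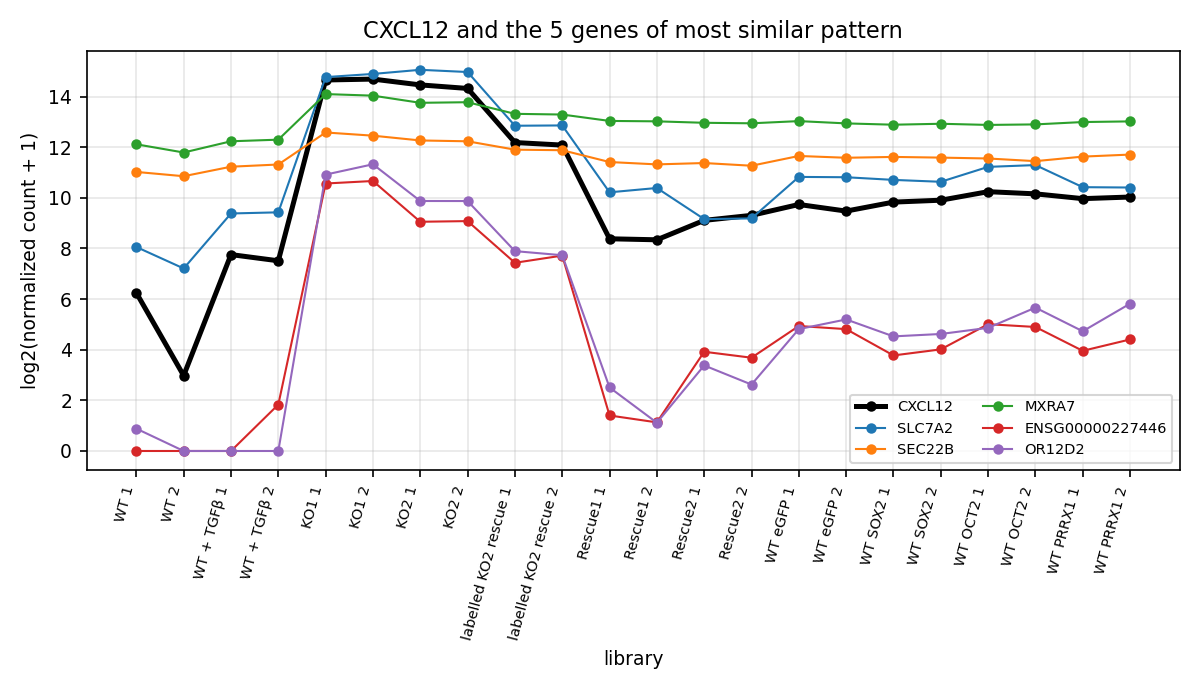
Level as log2(normalized count + 1) (y axis) of CXCL12 (thick black line) and of the 5 genes with the most similar pattern (thin lines) in each of the 22 libraries (x axis). All 6 genes are highest in KO1 and KO2, and CXCL12 drops between the WT libraries, from 74.9 to 6.88 normalized counts.

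For CXCR4 the most similar genes were TFPI, a coagulation inhibitor (r = 0.84), HOXB5 (0.82), ENSG00000276262 (0.82), MGLL, a monoacylglycerol lipase (0.81), and KYNU, an enzyme of kynurenine breakdown (0.81). TFPI went from 253 in WT to 1605 in KO1, 1266 in KO2, 436 in Rescue1 and 333 in Rescue2. For ACKR3 they were BET1L (r = 0.96), COPG1, a coatomer subunit (0.96), SEC16A, a protein of endoplasmic reticulum exit sites (0.95), YIPF2 (0.95) and FBXO9 (0.95). COPG1 ran from 4108 in WT to 7905 in KO1 and 8648 in KO2. Between the members r was 0.51 for CXCL12 and CXCR4, 0.67 for CXCL12 and ACKR3, and 0.44 for CXCR4 and ACKR3, with n = 22. The most similar genes were picked for the highest r among all genes ranked, so their values are no yardstick for these pairs. CXCR4 and ACKR3 also had few reads, so whether the members vary together was not decided by these values.

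Around these 3 genes, 7 lists held 101 other genes of the pathway, 76 of which passed the filter. Matched to the data by symbol were 3 of 4 other ligands, all 10 other receptors, 9 of 11 peptidases and 18 of 19 heparan sulfate genes. So were 22 of 23 genes of signalling below CXCR4, 19 of 20 arrestin, kinase, RGS and trafficking genes and 13 of 14 transcription factors. Genes without a match were not evaluated, so they did not fail the filter. In KO1 against WT, 20 of the 76 were called higher and 10 lower, or 26.3% and 13.2%, beside 12% and 13.1% of all genes tested. In KO2 against WT, 15 were higher and 9 lower, or 19.7% and 11.8%, beside 9.02% and 7.29%. The median log2 difference over the 76 was 0.15 in KO1 and 0.16 in KO2, with 0.00 over all genes. With TGFβ 5 were higher and 4 lower, or 6.58% and 5.26%, beside 3.58% and 4.26% of all genes. In Rescue1 against eGFP 10 and 7 were, or 13.2% and 9.21%, beside 6.03% and 6.79%. In Rescue2 against eGFP 8 and 7 were, or 10.5% and 9.21%, beside 5.46% and 5.68%. None of the 76 was called in the SOX2, OCT2 or PRRX1 lines by limma. Of all genes, 0.0137%, 0.0274% and 0.0343% were called higher there and 0.00686% lower in each, so this does not set the lists apart.

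Of 4 other ligands, 3 were matched by symbol, and of these ADM and HMGB1 passed the filter. MIF was not matched and so was not evaluated. ADM, the adrenomedullin precursor, whose peptide ACKR3 scavenges, was at 9.4 and 11.2 in WT, 272 and 436 in KO1 and 73.2 and 44.8 in KO2. It was called higher in both KO clones, though not in KO2 without KO2 replicate 1 (log2 difference 2.02). ADM did not pass with TGFβ (0.32 ± 0.57, adjusted p = 0.80, limma), and rose in the eGFP line to 281 (4.53 ± 0.57, adjusted p = 3.6e-05, limma). HMGB1, which forms a complex with CXCL12 that acts on CXCR4, fell with TGFβ from 12321 to 5997 (log2 difference -1.04 ± 0.07 SE, adjusted p = 1.4e-07, limma). That size is just past the fold threshold, and was -1.0 without WT replicate 2 and -0.99 without TGFβ replicate 1, where it was not called.

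Of 10 other receptors of the families, CD74 and CCRL2 passed. CD74, a receptor for MIF that pairs with CXCR4, was lower in both KO clones, with means of 1098 in WT, 169 in KO1 and 56.6 in KO2. It was low in the rescue clones as well: Rescue1 was at 0 in both libraries, at least 114-fold below the eGFP mean of 468, and Rescue2 was at 48.5 (log2 difference -3.30 ± 0.27 SE, adjusted p = 5.7e-07, limma). The eGFP line was itself called below WT in CD74 (-1.22 ± 0.27 SE, adjusted p = 0.0036, limma). CCRL2, an atypical chemokine receptor, was at 0 in WT and at 7.4 and 17.2 in KO1, called, but at 2.53 and 0 in KO2.

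Among 11 peptidases that can trim CXCL12, 5 passed. MMP2, a gelatinase, was higher in KO1 (7017) and KO2 (11592) than in WT (1831) and rose with TGFβ to 9059 (2.74 ± 0.45, adjusted p = 5.8e-04, limma), although the WT libraries themselves held 3064 and 599. Without WT replicate 2 the MMP2 differences were 1.56 for TGFβ, 1.19 for KO1 and 1.92 for KO2. MMP2 was also above eGFP in Rescue1 (8103 against 2097, 1.95 ± 0.45 SE, adjusted p = 0.0051, limma). MMP9, the other gelatinase, was at 1126 and 722 in WT, at 0 in KO1 and at 7.45 and 4.93 in KO2. In the eGFP line MMP9 was at 0.77, so its high level was seen in WT, and in TGFβ-treated WT with 2503, but in no other group. CPM, a membrane carboxypeptidase, was lower in KO1 (81.1) and KO2 (70.7) than in WT (168), though the KO1 call was lost without either WT library or KO1 replicate 2 (-0.99 to -1.07). DPP4, the peptidase best known for inactivating CXCL12, was not called in either KO clone and was at 0 and 17.3 in Rescue1 against 92.3 and 111 in the eGFP line (-4.58 ± 0.98 SE, adjusted p = 0.003, limma, and -2.48 without Rescue1 replicate 1).

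Of 19 heparan sulfate proteoglycans and their enzymes, 16 passed, with 4 higher and 2 lower in each KO clone, where 12% and 13.1% of all genes were called in KO1 and 9.02% and 7.29% in KO2. SDC2, a syndecan, was lower, with means of 1348 in WT, 268 in KO1 and 629 in KO2 (not called in KO2 without WT replicate 2, -0.89). HS6ST2, a sulfotransferase, went from 391 in WT to 60.8 and 187. SULF1, an extracellular sulfatase that edits heparan sulfate, was at 1.9 and 0 in WT, 34.0 and 28.0 in KO1 and 67.6 and 55.5 in KO2. Its KO1 call was lost without WT replicate 2 (3.46). NDST1, an N-deacetylase and sulfotransferase of the chain, was higher in both rescue clones than in the eGFP line, 639 and 644 against 170 (1.94 and 1.95 ± 0.31, adjusted p = 3.1e-04 for both, limma). It was also called higher than in WT (212) in KO1 (437), KO2 (470) and TGFβ-treated WT (430). Those calls were lost without WT replicate 1 (0.56, 0.67 and 0.54). With libraries scaled to the same total, the KO1 and TGFβ calls were lost (0.75 and 0.89). The TGFβ call was also lost without either TGFβ library.

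Of 23 genes of signalling below CXCR4, 21 passed, with 7 higher and 4 lower in KO1 (all genes 12% and 13.1%) and 6 higher and 3 lower in KO2 (all genes 9.02% and 7.29%). ELMO1, an adaptor for Rac activation, was at 6.88 and 6.05 in WT, 264 and 106 in KO1 and 408 and 379 in KO2. It stayed high in the rescue clones, with 260 and 267 in Rescue1 and 283 and 312 in Rescue2 against 5.88 and 7.17 in the eGFP line (5.14 and 5.31 ± 0.49, adjusted p = 2.8e-06 and 2.0e-06, limma). VAV3 and VAV1, guanine nucleotide exchange factors, went the other way. VAV3 was at 279 in WT, 11.2 in KO1, 6.45 in KO2, 5.14 in Rescue1, 12 in Rescue2 and 197 in the eGFP line, and fell with TGFβ to 51.1 (-2.44 ± 0.61, adjusted p = 0.012, limma, lost without WT replicate 2 or TGFβ replicate 1). VAV1 was at 42.5 in WT, 1.1 in KO1 and 6.36 in KO2. With TGFβ it fell to 4.06 (-3.1 ± 0.75, adjusted p = 0.0093, limma). The VAV1 calls in KO2 and with TGFβ were lost without single libraries, at -2.42 to -2.73 and -3.06 to -3.11. PIK3CG, a phosphoinositide kinase subunit, was at 0 in WT, KO1 and eGFP and at 55.7 and 44.5 in Rescue2, at least 15.6-fold above eGFP (adjusted p = 0.018, limma), a call lost without any library of the comparison (adjusted p = 0.069 to 0.088, limma).

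Of 20 arrestins, kinases, RGS proteins and trafficking genes, 17 passed, with 3 higher and 1 lower in KO1 and 2 higher and 1 lower in KO2, to be read against the same shares of all genes, 12% and 13.1% in KO1 and 9.02% and 7.29% in KO2. GRK5, a receptor kinase, was at 86.3 in WT, 544 in KO1 and 359 in KO2. It rose with TGFβ to 251 (1.61 ± 0.26, adjusted p = 4.5e-04, limma). STAM2, of the endosomal sorting machinery, was at 52.6 in WT, 112 in KO1 and 129 in KO2, called in both. Neither call held without WT replicate 1 (0.51 and 0.70), nor the KO1 call with libraries scaled to the same total (0.86). STAM2 was also called higher in the eGFP line than in WT (1.89 ± 0.35 SE, adjusted p = 8.7e-04, limma). RGS2, which speeds the turn-off of G proteins, was at 64.5 and 46.5 in the eGFP line against 1.9 and 1.96 in Rescue1 and 0 and 0.71 in Rescue2 (adjusted p = 1.6e-04 and 1.8e-05, limma). The eGFP line was also above WT in RGS2 (5.29 ± 0.63, adjusted p = 2.1e-05, limma). Against KO2, with an RGS2 mean of 0.65, neither rescue clone was called. RGS4 was higher in Rescue1, with 6.53 and 10.3 against 0 and 1.13 in the eGFP line (2.66 ± 0.80, adjusted p = 0.023, limma), a call lost without either Rescue1 library or eGFP replicate 1 (2.11 to 2.95).

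Of 14 transcription factors described at these genes, 13 passed. In KO1, 2 were called higher and 0 lower (all genes 12% and 13.1%). In KO2, 1 was higher and 0 lower (all genes 9.02% and 7.29%). CEBPB, which acts at the CXCL12 promoter, was called higher in both KO clones and was the only one called in KO2, with 386 and 287 in WT, 2842 and 2795 in KO1 and 1440 and 1313 in KO2. The eGFP line was also called above WT in CEBPB (1.48 ± 0.12 SE, adjusted p = 6.6e-07, limma). CEBPB was lower in Rescue2 than in the eGFP line (395 against 933, -1.24 ± 0.12 SE, adjusted p = 4.1e-06, limma). HIF1A, the hypoxia-inducible subunit, was called higher in KO1 and not in KO2, with means of 2550 in WT, 7535 in KO1 and 4970 in KO2. It was named after its values were seen. SP1, which binds GC boxes, was lower in the rescue clones than in the eGFP line (384 in Rescue1 and 525 in Rescue2 against 1659, adjusted p = 0.0052 and 0.016, limma). The SP1 calls were lost without Rescue1 replicate 2 (-1.63) and without Rescue2 replicate 2 (-1.07) or either eGFP library (-1.85 and -1.89). EBF3 was higher in both, at 101 and 30.9 against 4.05 (adjusted p = 9.4e-04 and 0.015, limma), and the Rescue2 call was lost without either Rescue2 library or eGFP replicate 2 (1.81 to 3.47).

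**Figure D4:**
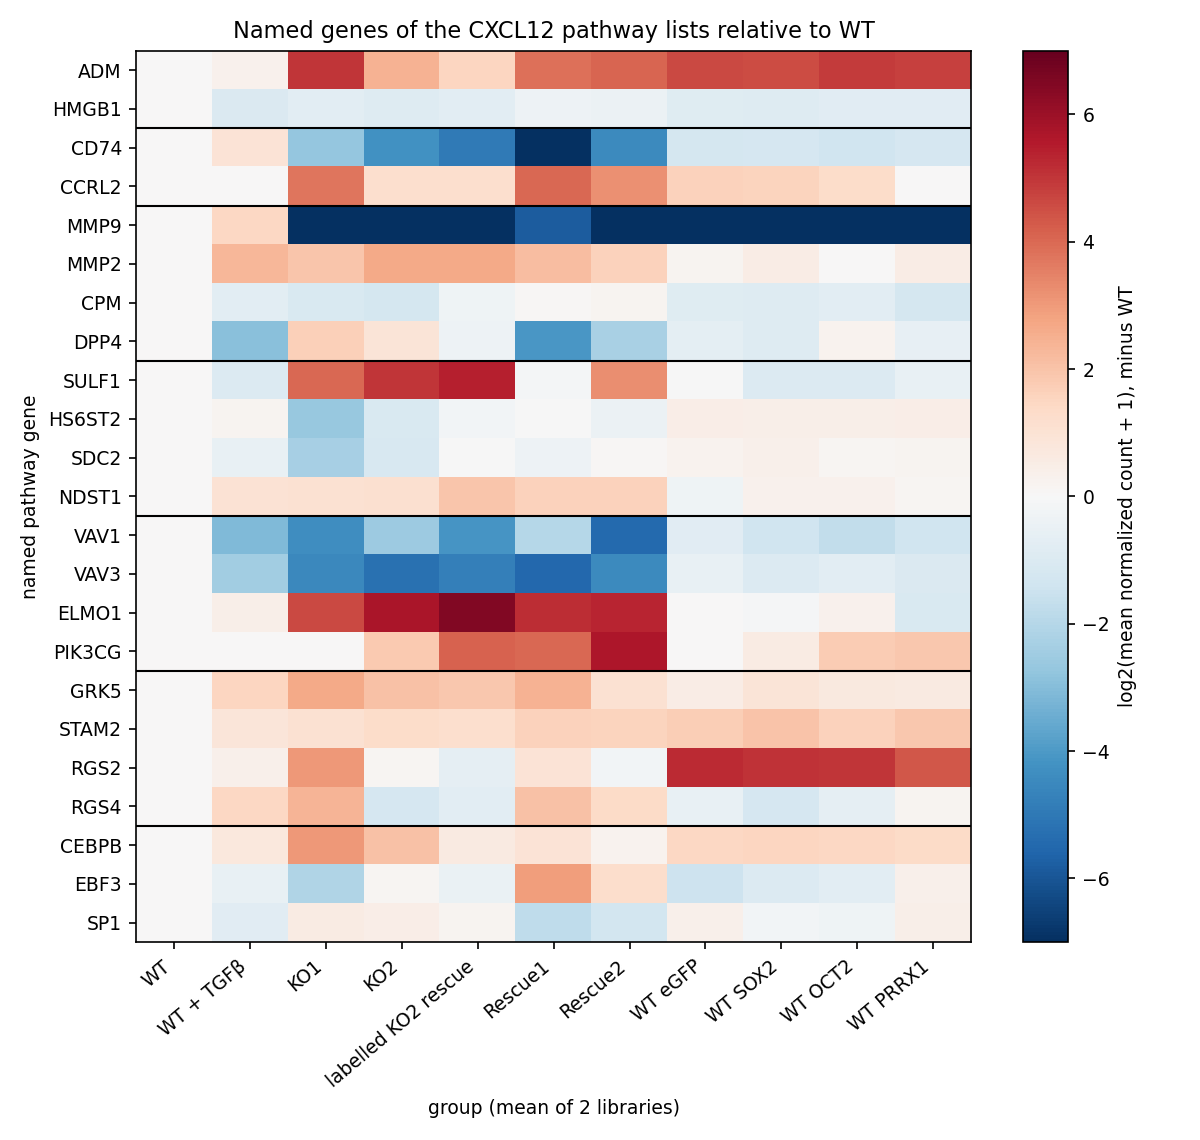
Group means of the 23 named pathway genes (rows, black lines between lists) in the 11 groups (columns), as log2(mean normalized count + 1) minus the WT value (colour), with differences beyond 7 drawn at the end of the scale. ELMO1 is red and VAV3 blue in the KO and rescue clones, and MMP9 is high in WT and TGFβ-treated WT.

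Markers of other cells were read beside these values. Leukocyte markers summed to 20.6 to 279 normalized counts per library over 10 genes, and CD3E and MS4A1 were at 0 in every group. LCP1, an actin-bundling protein, was called higher in both KO clones, from 0 in WT to means of 83.3 and 176, and CD14 was called higher in KO1, from 0 to 6.95. LCP1 and CD14 were also called higher in the eGFP line than in WT, and CD14 with TGFβ. Endothelial markers summed to 3.31 to 177 over 8 genes, with CLDN5 at 0 in 10 of the 11 groups. KDR, a VEGF receptor, was called higher in both KO clones, with means of 0.39 in WT, 113 in KO1, 136 in KO2 and 7.56 in the line labelled KO2 rescue, and TIE1 was called higher in KO2, 0.21 against 13.7. Stromal markers, 12 genes, summed to 5473 to 16868 in WT, 47169 to 48447 in WT with TGFβ, 224122 to 237231 in KO1, 101177 to 104673 in KO2, 40213 to 42535 in the line labelled KO2 rescue, 1836 to 2550 in the rescue clones and 5453 to 5855 in the eGFP line. The KO1 and KO2 sums were mostly DCN, a matrix proteoglycan, with means of 228207 and 96676. PDGFRA, DCN, LUM and THY1 were called higher in both KO clones, KITLG was called lower in both and COL3A1 in KO1. COL1A1, not called in either, was at 6226 in WT, 928 in KO1, 3636 in KO2 and 45802 with TGFβ, and LEPR, also not called, at 1042, 559, 964 and 431. VCAM1 was at 0 in KO1 and FAP in KO2. In the eGFP line against WT, DCN and THY1 were called higher, and KITLG and COL1A1 lower. The part of these markers in the CXCL12 level was not tested. The 8 kidney epithelial markers were read in every group and summed to 17824 to 45469. Their sums were 39045 to 43357 in WT, 17824 to 19433 in KO1, 25950 to 26983 in KO2 and 26500 to 28111 in the eGFP line. They were 44293 to 45314 in the line labelled KO2 rescue, 44441 to 45469 in Rescue1 and 41244 to 42227 in Rescue2. EPCAM was called lower in both KO clones, and KRT8 and KRT19 lower and PAX8 higher in KO1. In the eGFP line EPCAM was called lower than in WT as well. The 8 genes of the proximal tubule function list summed to 856 to 942 in WT, with LRP2, SLC5A2 and SLC22A6 at 0. Of that list, CUBN and ANPEP were called higher in both KO clones.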

How the data were processed

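RNA was sequenced from 22 libraries, 2 in each of 11 groups taken from the labels. The authors deposited 1 table of log2 values for 36859 genes, 33878 of them with a symbol. The submitters' processing notes name Salmon 1.9.0 and DESeq2 1.26.0, with Ensembl release 94 annotation of GRCh38. The transformation is not given in the sources used here. The values ran from 11.32, which stands for a count of 0, to 21.28, and had the form of a variance-stabilized scale, so low counts are compressed on it.

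From these deposited log2 values, normalized counts were recovered by inverting that form, and the worth of 1 read in each library from the smallest steps between low values (0.82 to 1.57 normalized counts). The totals per library were 11674491 to 16758645 normalized counts. Differences were tested with limma 3.58.1 in R 4.3.3 on log2(normalized count + 1), with an intensity trend, over 14585 genes reaching 10 normalized counts in 2 libraries, with the group as the only term and Benjamini-Hochberg adjustment. Log2 differences on this scale understate the change of low genes. The deposited table is not raw counts, so no count model was used. Where a group was at 0, a fold is a lower bound against the mean over its libraries of 3 reads. The script was tested on simulated data with known changes.

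The members and lists were chosen with earlier results of these data known. Of each of 7 lists, up to 3 genes called in the same direction in KO1 and KO2 against WT, and up to 3 called with TGFβ or in a rescue clone against eGFP, were named by absolute change, 23 genes in all. The 5 genes most like each member were ranked by Pearson correlation. Alternatives were other pseudocounts (0.5 and 5), filters, scalings, the deposited log2 values as they are, only the libraries compared, the replicate number as a block, each library left out in turn and, chosen after seeing the data, a fit without the WT libraries. Python 3.11.15, pandas 2.3.3 and matplotlib 3.10.9 were used for tables and plots.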

Additional observations from a re-analysis of the deposited data

Results flagged for a closer look

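Effects of the same contrast that differed between the KO clones, or between the rescue clones, are given here. Each was tested as the difference itself with limma, with adjustment over all genes. Higher in KO1 than in KO2 were ADM, by 2.57 ± 0.57 (SE) on the log2 scale (means 354 and 59.0, adjusted p = 0.007, limma), CD74, by 1.55 ± 0.27 (169 and 56.6, adjusted p = 0.0012, limma), and CEBPB, by 1.03 ± 0.12 (2818 and 1377, adjusted p = 5.0e-05, limma). The same held at low counts for CCRL2, by 2.72 ± 0.86 (7.4 and 17.2 against 2.53 and 0 in the libraries, adjusted p = 0.046, limma), RGS2, by 2.97 ± 0.63 (11.7 and 0.65, adjusted p = 0.0049, limma), and RGS4, with a fitted 3.17 ± 0.80 and KO2 at 0, at least 3.12-fold higher (adjusted p = 0.014, limma). Lower in KO1 were HS6ST2, by -1.62 ± 0.16 (60.8 and 187, adjusted p = 6.5e-06, limma), SDC2, by -1.32 ± 0.23 (268 and 629, adjusted p = 0.0011, limma), and MMP9, with a fitted -2.82 ± 0.83 and KO1 at 0, at least 2.21-fold lower (adjusted p = 0.032, limma).

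None of these 9 calls held when only the 4 libraries compared were fitted (adjusted p = 0.058 for CEBPB to 0.24 for CCRL2, limma), nor on the deposited log2 values, where the differences were under the fold threshold. Those of CD74 and HS6ST2 held under the other alternatives. ADM was not called without KO1 replicate 2 or KO2 replicate 2 (adjusted p = 0.06 and 0.074, limma), and SDC2 was not called without KO1 replicate 2 (-0.79). CEBPB was under the fold threshold with libraries scaled to the same total (0.85), after quantile normalization (0.93) and without KO2 replicate 2 (0.97). CCRL2 was not called with a pseudocount of 0.5, the same total or the replicate block (adjusted p = 0.068, 0.058 and 0.057, limma), nor without KO1 replicate 2 or KO2 replicate 2 (adjusted p = 0.22 and 0.32, limma). RGS2 was not called without KO2 replicate 2 (adjusted p = 0.068, limma), nor RGS4 without KO1 replicate 2 or either KO2 library (adjusted p = 0.061 to 0.14, limma). MMP9 was not called with a pseudocount of 5, no filter, a minimum mean of 50 or quantile normalization (adjusted p = 0.055 to 0.11, limma), nor without any one library of the comparison (adjusted p = 0.07 to 0.15, limma).

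Between the rescue clones, relative to KO2, CD74 was higher in Rescue2, with a fitted 5.58 ± 0.27 and Rescue1 at 0, at least 11.8-fold (adjusted p = 2.8e-08, limma). GRK5 was lower in Rescue2, by -1.36 ± 0.26 (182 and 471, adjusted p = 0.011, limma), and so was VAV1, with a fitted -3.23 ± 0.75 and Rescue2 at 0, at least 3.73-fold lower (adjusted p = 0.046, limma). Values of these 3 differences under other settings are not reported here. Each clone is 1 line, so a difference between clones and a difference between effects of SETD2 cannot be told apart.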

How the results depend on the processing

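Tested as they are, the deposited log2 values are compressed at low counts, so differences were smaller throughout: CXCL12 differed by 3.44 (KO1 against WT), 3.21 (KO2 against WT), 0.24 (TGFβ) and 0.63 (eGFP against WT), CXCR4 by 0.11, 0.09, -0.08 (TGFβ), -0.10 (Rescue2 against KO2) and -0.10 (labelled KO2 rescue), and ACKR3 by 0.21 and 0.16 against WT and -0.18 in each rescue clone against KO2. Calls fell under the fold threshold with them: 178, 94, 31 and 23 genes for KO1, KO2, TGFβ and KO1 against KO2, 64 and 67 for the rescue clones against KO2, 44 and 36 against eGFP, 35 for the labelled KO2 rescue, 36 for eGFP against WT and 0 for SOX2, OCT2 and PRRX1 (main counts 3653, 2378, 1143, 1016, 2351, 2226, 1869, 1625, 608, 1856, 3, 5 and 6). Of the pathway lists 1 gene was called in KO1, KO2, TGFβ and Rescue1 against eGFP and 0 in the other comparisons. With only the libraries compared, the counts were 1912 (KO1), 0 (TGFβ), 1 (KO1 against KO2), 1167 (Rescue1 against eGFP), 715 (eGFP against WT) and 0 for SOX2, OCT2 and PRRX1, and those of the pathway lists 0 (TGFβ), 0 (KO1 against KO2), 9, 3 (labelled KO2 rescue) and 7 (eGFP). In this setting the CXCL12 calls for TGFβ (3.02) and eGFP against WT (4.99) and the CXCR4 calls for TGFβ (-3.03) and the labelled KO2 rescue (-2.62) were lost, and Rescue1 against eGFP (-1.24) was gained for CXCL12. A pseudocount of 5 gave ACKR3 3.46 and 2.81 against WT, lost the CXCR4 call with TGFβ (-1.29), gained ACKR3 in the labelled KO2 rescue (-1.87) and left 3 OCT2 genes. A pseudocount of 0.5 lost CXCR4 there (-2.74) and gave 7 SOX2 genes. With no filter, CXCR4 in Rescue2 against KO2 (-2.30) and the labelled KO2 rescue (-2.62) lost their calls, with 16, 14 and 18 genes called for SOX2, OCT2 and PRRX1. With a mean of at least 50, 3 were called for OCT2, 3 for PRRX1, and 6 list genes in KO1 against KO2, and CXCR4 and ACKR3 gave no value because they were filtered out. Scaling to the same total gave -2.01 for CXCR4 in Rescue2, not called, and 6 SOX2 genes. Quantile normalization gave -2.21, not called, and gained ACKR3 in the labelled KO2 rescue (-2.67). Without the WT libraries, CXCL12 in Rescue1 against eGFP (-1.24) and ACKR3 in the labelled KO2 rescue (-2.40) were gained and CXCR4 there (-2.62) lost.

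Scaling to the same total also moved the median of all genes, by -0.39 (KO1), -0.20 (KO2 and TGFβ), -0.21 (KO1 against KO2), 0.23 and 0.28 (Rescue1 and Rescue2 against KO2) and 0.12 (Rescue2 against eGFP), and the share of calls that were higher from 47.7 to 27.9%, 55.3 to 41.5% (KO2), 45.7 to 27.7% (TGFβ), 35.5 to 22.6%, 42.7 to 62.6%, 44.9 to 66.9% and 49.0 to 59.1%. Replicate numbers did not pair the libraries in 1 fixed way. Over 55 pairs of groups, the differences between duplicates correlated from -0.62 (eGFP and PRRX1) to 0.53 (OCT2 and PRRX1). Of these pairs, 7 were over 0.1 and 7 under -0.1, so some groups shared deviations. The source of the shared deviations was not tested. With the replicate block, CXCR4 in the labelled KO2 rescue was no longer called (-2.62, adjusted p = 0.056, limma) and ACKR3 was (-2.40, adjusted p = 0.046, limma).

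Leaving out single libraries gave 739 (without WT replicate 2) to 1308 genes for TGFβ, 642 (without KO2 replicate 2) to 1745 (without KO1 replicate 1) for KO1 against KO2, and 7 to 36, 3 to 37 and 7 to 41 for SOX2, OCT2 and PRRX1, with the highest counts without eGFP replicate 2. Pathway counts were 5 (without TGFβ replicate 1) to 10 for TGFβ, 3 (without KO2 replicate 2) to 13 for KO1 against KO2, 10 (without KO2 replicate 2) to 14 for Rescue2 against KO2 and 2 (without KO2 replicate 1) to 5 for the labelled KO2 rescue. The member values were -3.09 to -2.98 for CXCR4 and 1.03 to 2.94 for ACKR3 with TGFβ, and -2.59 to -2.01 for CXCR4 in Rescue2 against KO2. In the labelled KO2 rescue they were -2.33 to -2.19 for CXCL12, -2.91 to -2.33 for CXCR4 and -3.24 to -1.57 for ACKR3. CXCR4 changed sign in KO1 against KO2 (-0.49 to 0.91, with -0.08 without KO2 replicate 2), Rescue1 and Rescue2 against eGFP (-0.18 to 1.97 and -1.49 to 0.67), eGFP against WT (-0.89 to 1.26) and OCT2 against eGFP (-2.07 to 0.08). None of these CXCR4 differences was called. The cause of these changes was not tested. At 0 to 84 reads a library for CXCR4 and ACKR3, counting limits those comparisons.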

Other observations

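Over the 7 pathway lists, 9 of 76 genes (11.8%) were called higher and 9 (11.8%) lower in Rescue1 against KO2, beside 6.88% and 9.24% of all genes. In Rescue2 against KO2, which like the former also differs in serum, 8 (10.5%) were higher and 10 (13.2%) lower, beside 6.86% and 8.41%. In the labelled KO2 rescue against KO2, 2 (2.63%) were higher and 3 (3.95%) lower, beside 1.65% and 2.52%. In KO1 against KO2, 6 (7.89%) were higher and 4 (5.26%) lower, beside 2.48% and 4.49%, and in eGFP against WT 8 (10.5%) and 5 (6.58%), beside 6.49% and 6.24%. Of the 10 stromal markers that passed the filter, PDGFRA, COL1A1 and DCN rose and LEPR and KITLG fell with TGFβ, genes named after their values were seen.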
